A study of Homo sapiens with 9 samples.

Results

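Genes whose products build or run the nucleolus were examined for chromatin binding of DDX21 and CDK9 in A375 cells, a human melanoma line. The 10 genes are POLR1A, POLR1B, UBTF, FBL, NOP56, NOP58, NCL, NPM1, NOLC1 and DDX21 itself. They were chosen by name, and their peaks were chosen by position: every called peak with any part within 5 kb of the gene's transcription start site (TSS) on hg19. The rule found 26 of the 27469 peaks in the 6 lists, 24 from the DDX21 lists and 2 from the CDK9 lists, and 8 of the 10 genes had at least 1 peak.

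Chromatin immunoprecipitation and sequencing (ChIP-seq) was done on A375 cells kept for 24 h in DMSO, in 25 µM A771726, or in 25 µM A771726 with nucleotides. A771726 is the active form of leflunomide and blocks dihydroorotate dehydrogenase, which the cell needs to make pyrimidine nucleotides. The labels name neither the nucleotides nor their amount. There was 1 library for each combination of antibody and treatment. No replicate error exists, and no test between treatments was made.

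Ribosome production starts in the nucleolus, where RNA polymerase I transcribes the ribosomal RNA genes. The transcript is then cut, modified and folded by small nucleolar ribonucleoproteins, helicases and chaperones. The proteins that do this work are themselves made from genes transcribed by RNA polymerase II, and the 10 genes here are of that kind. DDX21 is an RNA helicase that works in ribosomal RNA processing and also binds polymerase II promoters. CDK9 is the catalytic subunit of P-TEFb, which frees paused polymerase II.

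Upstream sequences are shown for 3 genes that differed in their peaks: DDX21 had a DDX21 peak under all treatments, NOP56 was the gene with a CDK9 peak, and FBL had no peak. They are the 250 bases before the most upstream start that RefSeq lists, on GRCh38.p14, read 5′ to 3′ on the gene's strand. Capitals mark matches to an ETS core (CCGGAA) or a GC box (GGGCGG) on either strand. The DDX21 sequence is chr10:68955920-68956169 (+), the NOP56 sequence chr20:2652382-2652631 (+) and the FBL sequence chr19:39846380-39846629 (-). The peaks and the TSS used for them are on hg19, and no coordinate was converted between the builds. A RefSeq start may be another base than the TSS used here, so the sequences describe the genes and are not placed under the peaks.
DDX21: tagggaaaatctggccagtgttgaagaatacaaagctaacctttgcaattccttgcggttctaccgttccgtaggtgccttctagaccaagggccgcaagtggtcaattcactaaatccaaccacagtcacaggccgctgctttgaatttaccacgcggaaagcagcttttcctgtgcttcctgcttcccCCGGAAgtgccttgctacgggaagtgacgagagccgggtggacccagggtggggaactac
NOP56: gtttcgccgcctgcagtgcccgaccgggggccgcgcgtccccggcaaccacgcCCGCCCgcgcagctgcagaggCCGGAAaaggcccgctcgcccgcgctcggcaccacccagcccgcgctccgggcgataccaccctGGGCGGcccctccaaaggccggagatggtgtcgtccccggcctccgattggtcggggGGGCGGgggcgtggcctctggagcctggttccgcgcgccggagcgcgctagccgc
FBL: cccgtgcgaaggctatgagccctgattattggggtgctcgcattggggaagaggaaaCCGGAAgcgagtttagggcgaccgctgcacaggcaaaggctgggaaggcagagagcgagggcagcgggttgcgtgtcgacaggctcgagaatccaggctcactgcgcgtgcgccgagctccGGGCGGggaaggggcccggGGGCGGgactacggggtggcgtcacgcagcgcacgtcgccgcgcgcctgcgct

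Upstream sequence differed widely among the genes. RefSeq's promoter table held 8 of the 10 genes, with 12 starts, and no entry was found for NOP58 and NOLC1. G and C made up 43.2% of the 250 bases at POLR1A, 68.8% at FBL, 72.0% at NCL and 78.0% at NOP56, which have 1 start each in the table. The genes with 2 starts had 46.4% and 67.6% at NPM1, 53.2% and 70.0% at DDX21, 63.6% and 62.8% at POLR1B, and 70.8% and 79.2% at UBTF, the upstream start first. The median over all 35116 promoters of the table was 58.0%. Genes with and without a DDX21 peak in DMSO overlapped in this value. A GC box was found before 8 of the 12 starts, against 42.6% of all promoters, and an ETS core before 5, against 14.5%. The E-box CACGTG was found before 1 start, the downstream start of DDX21, against 6.34% of all promoters. The TATA box TATAAA and the binding motifs of NRF1 and YY1 were found before none, against 10.7%, 1.03% and 0.248%. Both strands were searched, and no motif contains another.

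DDX21 ChIP gave a peak at 7 of the 10 genes in DMSO, at 5 with A771726 and at 8 with A771726 and nucleotides. The 5 genes with a peak under all treatments were POLR1A, POLR1B, NOP58, NOLC1 and DDX21. NCL and NPM1 had a peak in DMSO and with nucleotides but none with A771726 alone. NOP56 had one with nucleotides only. FBL and UBTF had none under any treatment. The same genes were counted with windows of 1 kb and 10 kb. All 26 peaks lay between 271 bp upstream and 992 bp downstream of a TSS. Where a gene had no DDX21 peak in a list, the nearest lay at least 11503 bp away (NOP56 in DMSO). The share of all genes with a DDX21 or CDK9 peak near the TSS was not worked out, for lack of hg19 positions of other genes. The counts among the 10 genes are therefore not read as particular to them.

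CDK9 ChIP gave a peak at NOP56 alone, in DMSO and with nucleotides, and no peak at any of the 10 genes with A771726. The whole CDK9 lists held 3462, 290 and 3099 peaks in DMSO, under A771726 and with nucleotides, against 8321, 4375 and 7922 for DDX21. A missing peak says only that none was called at the depth of that library. The lowest pileup called for DDX21 was 8 fragments in DMSO, 10 under A771726 and 8 with nucleotides. For CDK9 these limits are not on an equal footing: the lowest pileup called was 9, 8 and 8 fragments, but the shortest peak was 50 bp, the lowest background 0.521 and the highest pileup 69 fragments under A771726, against 128 bp, 1.17 and 256 fragments in DMSO.

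In the DMSO list, 8 DDX21 peaks lay at these genes, and 5 of them overlapped an A771726 peak, against 51.1% of all DDX21 DMSO peaks. All 8 overlapped a peak with nucleotides, against 86.3% of the list. With 8 peaks, neither share is read as particular to these genes. Which genes had an A771726 peak went with the strength of the site in DMSO, as over the whole list. The 5 peaks that were found again ranked in the seventh decile of −log10 q or above, where at least 90.9% of all peaks were found again with A771726. The 3 that were not found again ranked in the fourth decile (NCL), the second and the lowest (both NPM1), where 13.6%, 2.52% and 1.08% of all peaks were.

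**Figure D1:**
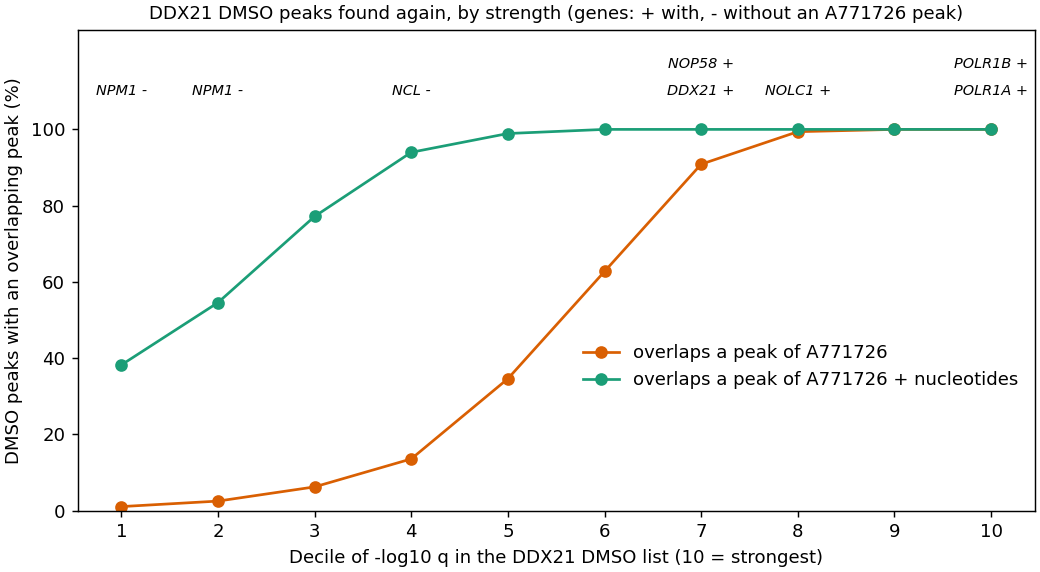
Share of DDX21 DMSO peaks (y axis, %) that overlapped an A771726 peak (orange) or a peak with nucleotides (green), by decile of −log10 q in DMSO (x axis, 10 is the strongest). Gene names stand above the decile of their DMSO peak, with + where an A771726 peak was called and - where none was: the 3 peaks with - sit in deciles 1, 2 and 4, and the 5 with + in deciles 7 to 10.

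Summit pileup, the number of fragments over the highest point of a peak, was worked out from the deposited fold enrichment and −log10 p. For comparison between libraries each pileup was divided by the lowest background in that list. The quotient of 2 such values is called the relative pileup. Its 95% interval is exact for 2 counts and covers counting error only. For DDX21 the lowest background was 1.22 in DMSO, 1.16 with A771726 and 1.10 with nucleotides. It reflects depth only in part, since it can also vary with fragment length. Estimated tags with A771726 were 1.06 times those in DMSO, so the 2 scalings go in opposite directions there. At the 5 genes with a peak under all treatments, the relative pileup with A771726 over DMSO ran from 0.279 to 0.648, with a median of 0.435 against 0.418 over all 4253 shared DDX21 sites. All 5 were lower by at least 1.5-fold, against 91.3% of shared sites, and a lower value of any size was found at 99.0% of them. Without scaling the median of the 5 was 0.417, and scaled by estimated tags it was 0.394. With nucleotides over DMSO the tallest peaks of the 7 genes had a median of 1.11, against 1.04 over 7180 shared sites, and every interval spanned 1. Of the 8 DMSO peaks, 1 was lower with nucleotides, against 39.2% of shared sites, and 0 were lower by at least 1.5-fold, against 1.99%. These ratios exist only where a peak was called in both lists.

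**Figure D2:**
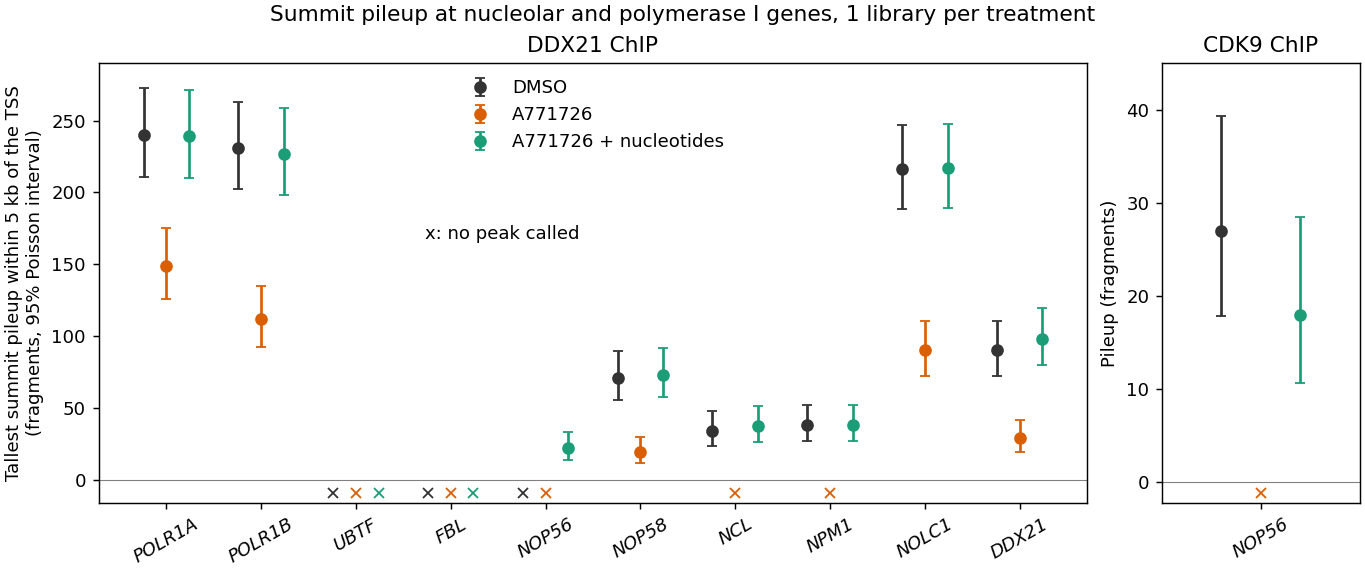
Tallest summit pileup within 5 kb of each TSS (y axis, fragments, not scaled to depth) for each gene and treatment, DDX21 ChIP on the left and CDK9 ChIP at NOP56 on the right, with exact Poisson 95% intervals for counting error. Crosses mark genes with no called peak. With A771726 the points of POLR1A, POLR1B, NOLC1, DDX21 and NOP58 lie at 149, 112, 90, 29 and 19 fragments, below 240, 231, 216, 90 and 71 in DMSO.

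POLR1A encodes the largest subunit of RNA polymerase I, which forms part of its catalytic centre. Its TSS lies at position 86333278 on chromosome 2, and its DDX21 peak in DMSO ran from 86332536 to 86333549. This peak was 1014 bp wide, wider than 99.4% of the list, and ranked 230 of 8321. Its summit held 240 fragments in DMSO, 149 under A771726 and 239 with nucleotides, over backgrounds of 5.76, 4.80 and 6.04. Relative pileup with A771726 was 0.648 (95% interval 0.525 to 0.798), higher than at 90.1% of shared sites. Peaks of its decile, the strongest, had a median of 0.562. With nucleotides it was 1.10 (0.916 to 1.32).

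The POLR1A peak had 2 parts with A771726. One part, 352 bp wide with its summit 543 bp downstream of the TSS, matched the DMSO summit at 557 bp and that with nucleotides at 560 bp. The other part, 522 bp wide, had its summit 58 bp upstream of the TSS, a pileup of 40 fragments and a fold enrichment of 5.002, against 25.9 for the first. In DMSO and with nucleotides 1 peak covered both. On GRCh38, PTCD3, which encodes a mitochondrial ribosome protein, starts on the opposite strand within 1 kb of POLR1A, so a peak over this start cannot be assigned to 1 of the 2 genes. The same holds for POLR1B and NOP56, where a long noncoding RNA (LOC105373562 and LOC105372505) starts on the opposite strand within 1 kb. UBTF, which had no peak, has such a neighbour too (ATXN7L3-AS1). NOP58 and NOLC1, which had no entry in the promoter table, were not searched for such a neighbour.

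POLR1B encodes the second largest subunit, which completes the catalytic centre. Its TSS is at 113299492 on chromosome 2, and its DMSO peak ran from 113299502 to 113300159, ranked 337 of 8321. The summit pileup was 231 fragments in DMSO, 112 under A771726 and 227 with nucleotides. Relative pileup was 0.506 (0.400 to 0.637) with A771726 and 1.09 (0.900 to 1.31) with nucleotides. The summit kept its place, at 472, 475 and 487 bp downstream of the TSS, while the peak was 658, 293 and 842 bp wide. On GRCh38, RefSeq also lists a POLR1B start 429 bp downstream of the most upstream one. Which start the peak belongs to was not tested.

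UBTF encodes UBF, a DNA-binding protein that keeps ribosomal RNA genes in an open state for polymerase I. No list had a peak within 5 kb of its TSS, at 42297041 on chromosome 17. The nearest DDX21 peak lay 19230 bp away in DMSO, 32598 bp under A771726 and 19248 bp with nucleotides. The DDX21 peaks within 5 kb of both catalytic subunit genes' TSS were, at their tallest in DMSO, among the strongest 4.05% of the DMSO list, and none was called at UBTF.

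The pileups of POLR1A, POLR1B and NOLC1 were close to the highest value of their DMSO list, 256 fragments, which is 2 times its shortest peak of 128 bp. The highest values were 232 with A771726 and 262 with nucleotides, over shortest peaks of 116 and 131 bp. A count that keeps 1 tag per position and strand would have this maximum. Under such a count, pileups this near the maximum had little room to rise, and the intervals take no account of it. How such a maximum bears on the ratios of these 3 genes was not tested.

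**Figure D3:**
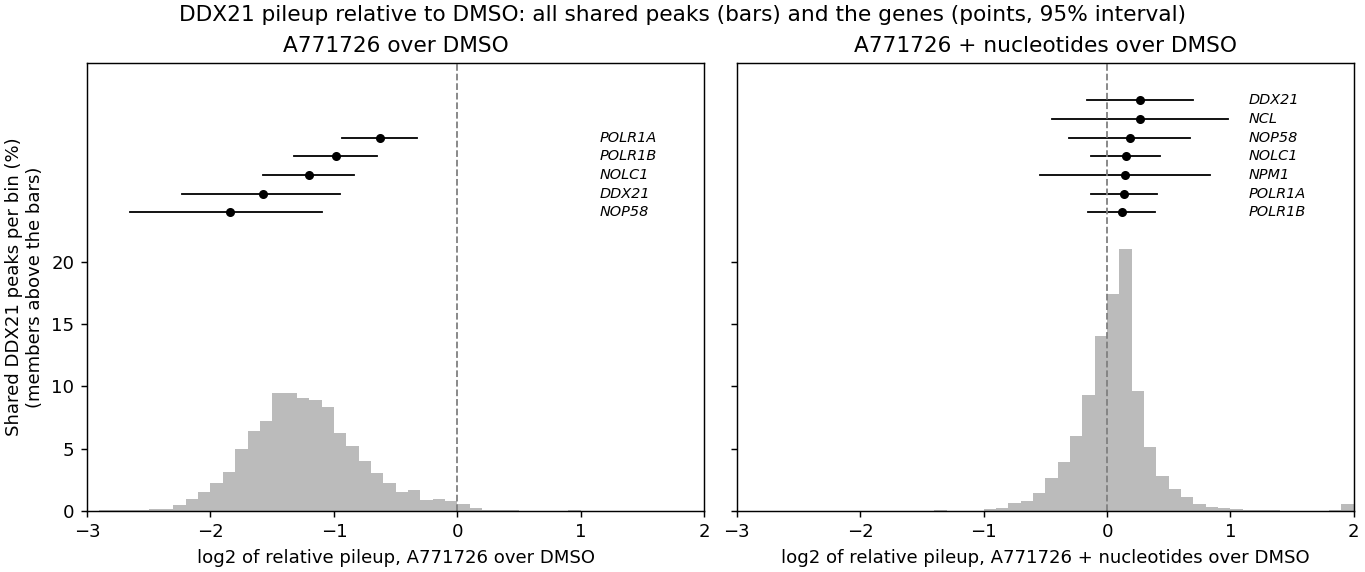
Relative DDX21 pileup over DMSO on a log2 scale (x axis) with A771726 (left) and with A771726 and nucleotides (right). Grey bars give the share of all shared DMSO peaks per bin (y axis, %; the outermost bins also hold values beyond the axis), and points with lines give the tallest DMSO peak of each gene with its 95% counting interval. All 5 genes on the left lie below 0, and all 7 intervals on the right span 0.

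FBL, NOP56 and NOP58 encode the core of the box C/D small nucleolar ribonucleoprotein, which methylates ribosomal RNA. FBL is the methyltransferase, and NOP56 and NOP58 are the paired scaffold proteins. A DDX21 peak was called at NOP58 under all treatments, at NOP56 with nucleotides only, and at FBL under none. The distance from the FBL TSS, at 40337054 on chromosome 19, to the nearest DDX21 peak was 12114 bp in DMSO, 21576 bp under A771726 and 12088 bp with nucleotides.

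NOP58 has its TSS at 203130515 on chromosome 2. Its DDX21 peak ran from 203130318 to 203130609 in DMSO, ranked 3271 of 8321 there, and had its summit 73 bp upstream of the TSS. The pileup was 71 fragments in DMSO, 19 under A771726 and 73 with nucleotides. Relative pileup with A771726 was 0.279 (0.159 to 0.469), the lowest of the 5 genes and with a lower value at 7.19% of shared sites. The A771726 peak was 121 bp wide, and 3.06% of its list was narrower, and its −log10 q of 3.25 was the weakest of the 24 DDX21 peaks at these genes. Pileup with nucleotides relative to DMSO was 1.14 (0.808 to 1.60).

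NOP56, with its TSS at 2633178 on chromosome 20, was the only gene of the 10 with a CDK9 peak. In DMSO the CDK9 peak ran from 2633259 to 2633424, with its summit 182 bp downstream of the TSS, a pileup of 27 fragments (95% Poisson interval 17.8 to 39.3) and a rank of 1320 of 3462. No CDK9 peak was called there with A771726, and 5.40% of all CDK9 DMSO peaks overlapped one. At a background within 1.3-fold of 5.54, the highest for CDK9 at NOP56, the A771726 list held 9 peaks, none below 20 fragments. That background is from the DMSO list, and the median background was 1.66 in the A771726 list against 4.16 in DMSO. Fragments of the 2 lists are thus not on an equal footing, and whether a peak was missed there was not tested. With nucleotides the CDK9 pileup was 18 (10.7 to 28.4), the summit lay 239 bp downstream and the rank was 2904 of 3099. Relative to DMSO this was 0.628 (0.326 to 1.18), an interval that spans 1, and lower by at least 1.5-fold, against 3.90% of shared CDK9 sites. Of all CDK9 DMSO peaks, 45.2% overlapped a peak with nucleotides.

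The DDX21 peak at NOP56 was weak and was called only with nucleotides. It had 22 fragments (13.8 to 33.3) over a background of 3.80, and ranked 6824 of 7922. Its summit was 26 bp downstream of the TSS. The peak covered all 155 bp of the CDK9 peak of the same treatment, whose summit was 213 bp away. In DMSO the CDK9 peak at NOP56 overlapped no DDX21 peak. Over the whole lists, 17.8% of CDK9 peaks overlapped a DDX21 peak in DMSO and 13.6% with nucleotides. Counted from the DDX21 side, 0 of the 8 peaks at these genes in DMSO, 0 of 6 with A771726 and 1 of 10 with nucleotides overlapped a CDK9 peak, against 7.38%, 0.960% and 5.30% of the lists. At a background within 1.3-fold of 3.80, the DMSO list held DDX21 peaks of as few as 13 fragments.

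**Figure D4:**
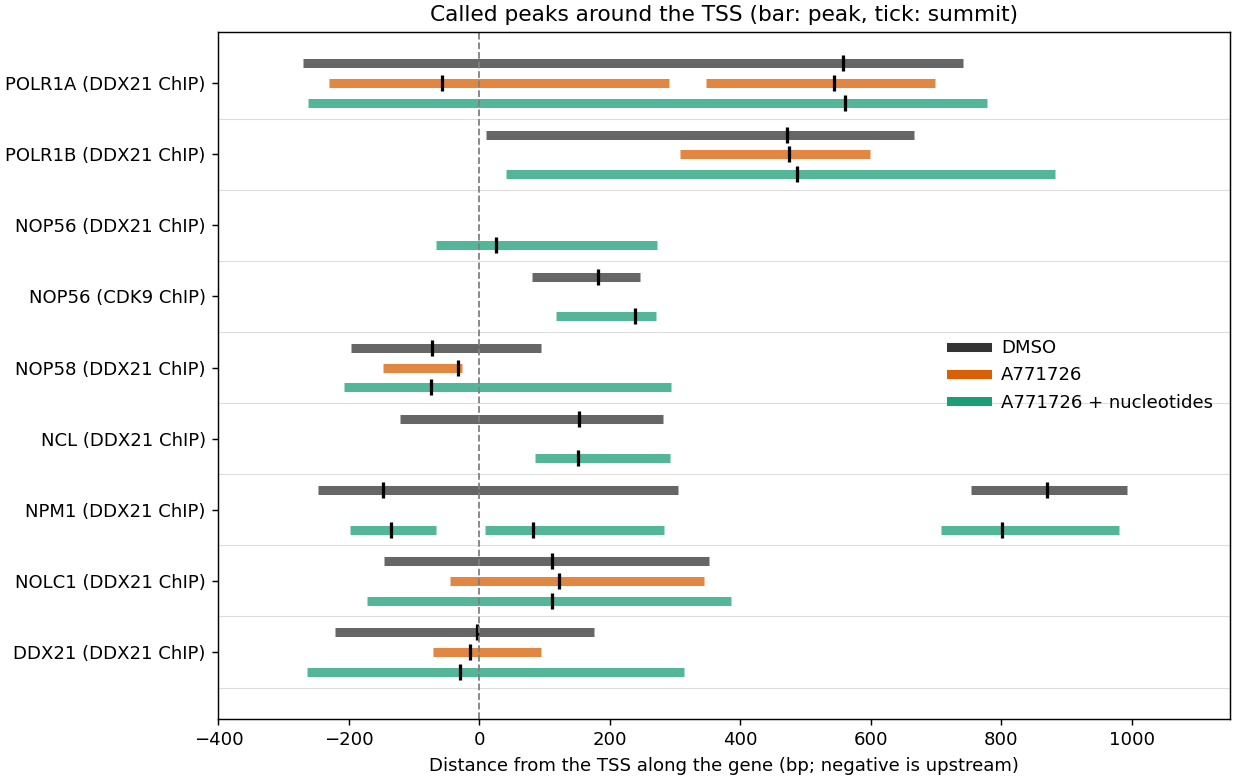
Called peaks of the 8 genes that had any, by distance from the TSS along the gene (x axis, bp), for DMSO (grey), A771726 (orange) and A771726 with nucleotides (green); bars span the peak and ticks mark the summit. The A771726 bars of POLR1B, NOP58 and DDX21 are shorter than the DMSO bars around nearly the same summit, and NCL, NPM1 and NOP56 have no A771726 bar.

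NOLC1, NCL and NPM1 encode abundant nucleolar phosphoproteins. NOLC1 (Nopp140) carries small nucleolar ribonucleoproteins and binds polymerase I, NCL (nucleolin) packs and processes the ribosomal RNA precursor, and NPM1 (nucleophosmin) is a chaperone of ribosome assembly. NOLC1 had a strong DDX21 peak under every treatment, and NCL and NPM1 had weak peaks in DMSO and with nucleotides only.

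The NOLC1 TSS is at 103911933 on chromosome 10, and the DMSO peak ran from 103911787 to 103912285. Its pileup was 216 fragments in DMSO, 90 under A771726 and 217 with nucleotides, with summits 112, 122 and 112 bp downstream of the TSS. Relative pileup was 0.435 (0.336 to 0.559) with A771726 and 1.11 (0.915 to 1.35) with nucleotides. Fold enrichment gave another order, with 10.3 in DMSO, 13.8 under A771726 and 34.2 with nucleotides. The background at the summit was 20.2 fragments in DMSO, 5.60 under A771726 and 5.38 with nucleotides. The rank of the site was 1854 of 8321 in DMSO and 457 of 7922 with nucleotides at nearly the same pileup.

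At NCL, with its TSS at 232329205 on chromosome 2, the DMSO peak ran from 232328924 to 232329327, with its summit 153 bp downstream. The pileup was 34 fragments (23.5 to 47.5) in DMSO and 37 (26.1 to 51.0) with nucleotides, where the summit lay at 151 bp. The relative pileup was 1.20 (0.734 to 1.97), so the 2 values did not differ beyond counting error. The nearest DDX21 peak with A771726 was 242514 bp away. At a background within 1.3-fold of the highest at NCL, 4.51 fragments, the A771726 list held 1765 peaks, down to 14 fragments.

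NPM1 has its TSS at 170814708 on chromosome 5 and had 2 DDX21 peaks in DMSO. One ran from 170814460 to 170815012 over the TSS, with 38 fragments and a fold enrichment of 3.52. The other ran from 170815461 to 170815700, with 27 fragments and its summit 870 bp downstream. RefSeq also lists an NPM1 start 733 bp downstream of the most upstream one on GRCh38. Which start each peak belongs to was not tested. With nucleotides the first site was called as 2 peaks, of 38 and 34 fragments, whose summits lay 135 bp upstream and 82 bp downstream, and the second had 24 fragments. Relative pileups were 1.10 (0.686 to 1.78) and 0.982 (0.542 to 1.77). With A771726 the nearest DDX21 peak lay 618739 bp away. At a background within 1.3-fold of 10.3, the highest at NPM1, that list held 351 peaks, down to 23 fragments.

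The DDX21 antibody also gave a peak at the start of the DDX21 gene. Its TSS is at 70715884 on chromosome 10, and the DMSO peak ran from 70715662 to 70716060. The pileup was 90 fragments in DMSO, 29 under A771726 and 98 with nucleotides. Relative pileup was 0.336 (0.213 to 0.516) with A771726 and 1.20 (0.894 to 1.62) with nucleotides. Peaks of the same decile, the seventh, had a median of 0.366 with A771726. The summits lay 3, 15 and 29 bp upstream of the TSS. The peak was 399 bp wide in DMSO, 167 bp under A771726 and 578 bp with nucleotides. No CDK9 peak lay within 50 kb of this TSS under any treatment.

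Peaks at these genes were narrower with A771726 at nearly the same summit. At the 5 shared sites the tallest A771726 peak had a median of 0.419 times the DMSO width, against 0.639 over all shared sites. The values were 0.347 at POLR1A, 0.414 at NOP58, 0.419 at DDX21, 0.445 at POLR1B and 0.782 at NOLC1. At POLR1A the peak had 2 parts with A771726, whose widths add up to 874 bp, against 1014 bp in DMSO. With 5 sites, the lower median is not read as particular to these genes. The summit moved by a median of 12 bp, the same as over all shared sites, and by 41 bp at most, at NOP58. All 6 A771726 peaks overlapped a peak with nucleotides, against 99.2% of the A771726 list. From A771726 to A771726 with nucleotides they had relative pileups of 1.70 to 6.32, against a median of 2.49 over 4342 shared sites. The value of 6.32 belongs to the upstream part of POLR1A, which is set against a summit 618 bp away, and without it the highest was 4.07, at NOP58.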

How the data were processed

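Peak lists of 6 A375 ChIP-seq libraries were used, and the 3 inputs were not used here. Per the submitters' processing notes, Bowtie, MACS2 2.0 and hg19 were used; their parameters and the controls are not given here. The deposited lists give, per library, a fold enrichment (a ratio at the summit), −log10 p, −log10 q and summit position, all written by the authors' peak caller. A deposited score was left out.

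TSS positions came with the rule for the 10 genes. Strands came from RefSeq (GRCh38.p14) for 8 genes and from general knowledge for NOP58 and NOLC1. All 10 genes and all their peaks are named. The genes and lists were chosen with earlier results of these data known. Other nucleolar genes were not analysed here, for lack of hg19 positions.

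With Python 3.11.15, pandas 2.3.3 and scipy 1.17.1, pileup was solved from fold enrichment, (pileup + 1)/(background + 1), and the upper Poisson tail. A whole number met −log10 p within 0.001 for 100% of peaks. On simulated data, at least 99.9% of 1000 pileups per list were recovered. Peaks were shared when they overlapped by at least 1 bp. Read depth is unknown. The lowest background over the shortest peak put tags, relative to DMSO, at 1.06 and 0.884 for DDX21 with A771726 and with nucleotides. Alternatives varied the window, the q threshold, list length, overlap and scaling.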

Additional observations from a re-analysis of the deposited data

How the results depend on the processing

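Of 94 alternatives, all planned, 87 stayed within 1.5 times the count reported or within the interval of the ratio reported (for a median ratio, within 1 SD over the genes). A further 7 moved and 0 reversed. Some of the 87 could not have moved, since a count of 0 stays 0 under a stricter setting. Ratios limited to peaks that overlap the DMSO peak repeated the values reported, which rest on overlapping peaks already. The 87 of 94 is thus not read as a measure of stability. With the lists of an antibody limited to equal numbers of top peaks, DDX21 peaks were at 5 genes with nucleotides, CDK9 peaks at 0 genes in DMSO and 0 with nucleotides, and 5 DDX21 DMSO peaks, all that were left, overlapped a peak with nucleotides. DDX21 peaks in DMSO were then at 5 genes too, the number with A771726. The DMSO peaks of NCL and NPM1 ranked 5646, 6970 and 7678, and the A771726 list held 4375 peaks, so their ranks fixed this outcome. List length itself differed between treatments, and how each bears on the gene counts was not tested. With a −log10 q of at least 5, CDK9 had a peak with nucleotides at 0 genes, and 0 of the CDK9 DMSO peaks overlapped one. DDX21 then had a peak with A771726 at 4 genes, and 4 of its DMSO peaks at these genes overlapped an A771726 peak. NOP58, with a −log10 q of 3.25 under A771726, was the gene that dropped out. Without scaling, the median pileup with nucleotides over DMSO was 1.005, and POLR1A and POLR1B were at 0.996 and 0.983. With fewer peaks no CDK9 peak at these genes was left in some settings, so those overlaps have no value. No paired analysis was possible because each antibody and treatment had 1 library. Depth limits the weak sites: the 22 fragments of DDX21 at NOP56 carry a counting interval of 13.8 to 33.3.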

Other observations

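Small nucleolar RNA genes lie inside 3 of the 10 genes in RefSeq: 3 inside NCL, 5 inside NOP56 and 4 inside NOP58. Each of these host genes had a DDX21 peak with nucleotides, 2 had one in DMSO (NCL and NOP58) and 1 with A771726 (NOP58). Of the 7 other genes, 5 had a DDX21 peak with nucleotides, 5 in DMSO and 4 with A771726. With 3 hosts no difference is read from these counts.

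Outside the window, a CDK9 peak lay 11982 bp from the POLR1B TSS in DMSO and 11996 bp with nucleotides, and one lay 19102 bp from the NOLC1 TSS in DMSO. No CDK9 peak with A771726 lay within 50 kb of any of the 10 TSS, and the nearest was 266448 bp from POLR1B.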
